A study of Mus musculus with 6 samples.

Results

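The genes described here are 10 immediate-early genes of the AP-1 and EGR type: Fos, Fosb, Fosl1 and Fosl2 of the Fos family, Jun, Junb and Jund of the Jun family, and Egr1, Ier2 and Btg2. They were taken by symbol from the table of 24594 genes, each symbol had 1 row, and all 10 passed the filter on low counts that left 12592 tested genes. The samples were mouse small-intestinal organoids, which are cultured epithelial structures with crypt-like and villus-like parts, grown from single cells for 96 h. They were then given NIBR-LTSi at 5 uM for 24 h, or the corresponding amount of the solvent DMSO for the same time, with 3 libraries in each group. The compound blocks the Hippo pathway kinases LATS1 and LATS2, which normally keep the co-activators YAP and TAZ in check. The labels name no mouse strain, genotype or age, and do not say whether the 3 replicates of a group were separate cultures, so p-values measure the spread between these libraries, which may be technical. Per the labels' protocols, organoids were digested to single cells before RNA was purified, a handling step that all libraries share.

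Immediate-early genes are transcribed within minutes of a growth factor, stress or mechanical stimulus, from factors already present in the cell, and their mRNAs are usually short-lived. AP-1 is a dimer of basic leucine zipper proteins, in which a Fos protein pairs with a Jun protein, while Jun proteins can also pair with each other. The Fos, Fosb, Jun, Junb and Egr1 genes respond strongly to ERK, JNK and p38 signals through serum response factor and its ETS partners and through cyclic AMP response element binding proteins, whereas Jund is expressed more steadily. In the intestinal epithelium these genes are known to respond to EGF, to wounding and to the dissociation of the tissue.

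Total counts ranged from 18395427 to 26767043 per library, and the coefficient of variation between replicates was 6.03% by the common dispersion. The epithelial label was borne out by the markers: Epcam stood at 1152 ± 59 CPM (SD, n = 3; CPM, counts scaled to library size by TMM) with DMSO and 1129 ± 26 with NIBR-LTSi. All 6 epithelial markers were detected in every library, but not all were level: Krt8 and Krt18 rose by 0.46 and 0.63 on the log2 scale, Vil1 fell by 0.39, and Epcam, Cdh1 and Cdx2 were not called. The 6 mesenchymal markers together summed to at most 0.189 CPM in any library, and Dcn and Lum were at 0. The 5 immune markers summed to 3.78 to 5.21 CPM with DMSO and 5.36 to 6.09 CPM with NIBR-LTSi, with Cd3e at 0. The 3 endothelial markers summed to at most 0.614 CPM, with Cdh5 and Kdr at 0. These are bulk samples, in which fewer cells of a type and less RNA per cell cannot be told apart.

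With NIBR-LTSi, 8 of the 10 genes fell and none rose (edgeR quasi-likelihood test, adjusted p under 0.05), against 42.0% of all tested genes called in either direction and 19.2% called lower. Egr1, Btg2 and Fosb were at least 2-fold lower, a size of fall that 1.34% of tested genes reached, and Jun and Fos fell 1.88-fold and 1.79-fold. Ier2, Junb and Jund fell by less, and Fosl1 and Fosl2 were not called. In each of the 8 genes that fell, every NIBR-LTSi library lay below every DMSO library, which was so for 24.5% of all tested genes. The median log2 fold change over the 10 genes was -0.72, and over all tested genes 0.02. Together the 10 genes held 0.29% of all counts with DMSO and 0.177% with NIBR-LTSi (means of 3 libraries).

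**Figure D1:**
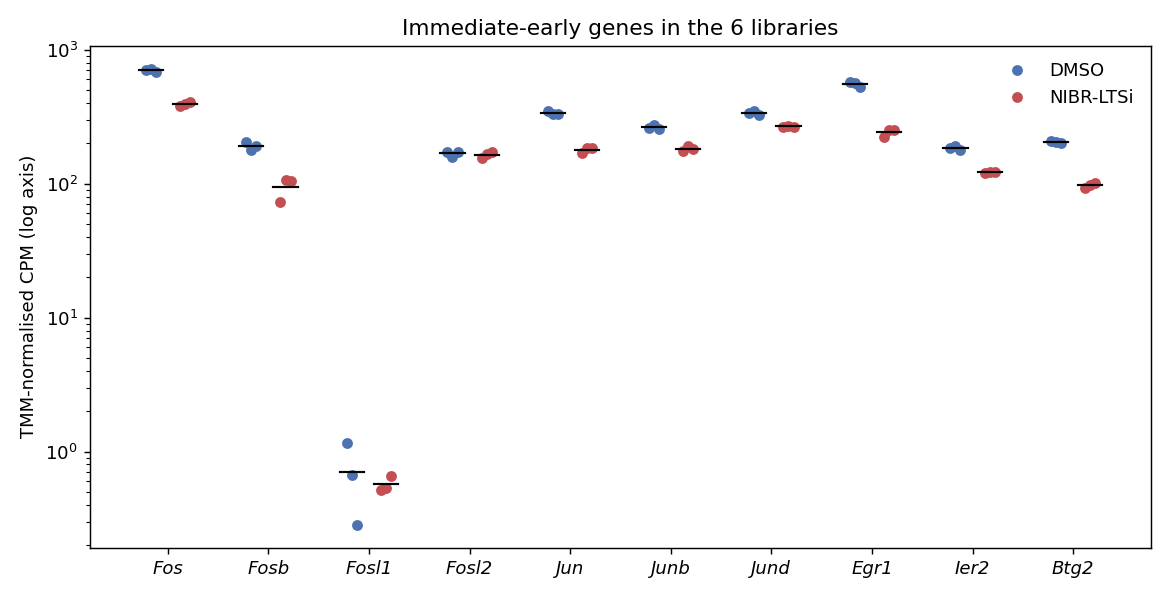
TMM-normalised CPM on a log axis for each gene, with 1 point per library (3 DMSO, 3 NIBR-LTSi) and a bar at the group mean. The groups are separate for 8 genes and overlap for Fosl1, which lies near or under 1 CPM, and for Fosl2.

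The promoters of 7 of the 10 genes were matched in the RefSeq promoter sequences of build GRCm38.p6, which run from 250 bases before the annotated start to 50 after it. All 7 are shown, so that members that moved together and one that did not can be read side by side. They are those of 6 of the 8 genes that fell and that of Fosl2, which was not called. Egr1 and Ier2, which also fell, and Fosl1 were not matched. Each run is the 180 bases that end just before the annotated start, and capitals mark the matches to the motifs searched. For Fosb the start in the promoter set lies inside the gene span given below. Part of its window therefore lies within that span, and its motif positions refer to the promoter set's start.
Fos, chr12:85473710-85473889, plus strand: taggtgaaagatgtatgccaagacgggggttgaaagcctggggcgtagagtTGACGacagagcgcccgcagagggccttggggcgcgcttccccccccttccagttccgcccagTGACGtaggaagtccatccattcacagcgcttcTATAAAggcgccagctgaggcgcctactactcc
Fosb, chr7:19310046-19310225, minus strand: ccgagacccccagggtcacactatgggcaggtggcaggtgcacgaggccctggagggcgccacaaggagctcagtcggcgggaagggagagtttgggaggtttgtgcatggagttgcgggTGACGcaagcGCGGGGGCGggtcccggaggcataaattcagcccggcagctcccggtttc
Jun, chr4:95052223-95052402, minus strand: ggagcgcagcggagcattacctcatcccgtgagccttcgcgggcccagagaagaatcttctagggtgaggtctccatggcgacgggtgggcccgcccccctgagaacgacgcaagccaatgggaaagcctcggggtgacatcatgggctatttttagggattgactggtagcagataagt
Junb, chr8:84978749-84978928, minus strand: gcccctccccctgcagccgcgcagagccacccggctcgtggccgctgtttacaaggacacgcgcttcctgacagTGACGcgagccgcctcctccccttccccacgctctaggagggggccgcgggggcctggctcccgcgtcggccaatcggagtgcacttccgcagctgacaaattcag
Jund, chr8:70697559-70697738, plus strand: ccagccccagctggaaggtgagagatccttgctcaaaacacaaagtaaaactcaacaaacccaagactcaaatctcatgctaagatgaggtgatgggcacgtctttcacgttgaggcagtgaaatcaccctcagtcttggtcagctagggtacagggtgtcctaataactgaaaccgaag
Btg2, chr1:134079156-134079335, minus strand: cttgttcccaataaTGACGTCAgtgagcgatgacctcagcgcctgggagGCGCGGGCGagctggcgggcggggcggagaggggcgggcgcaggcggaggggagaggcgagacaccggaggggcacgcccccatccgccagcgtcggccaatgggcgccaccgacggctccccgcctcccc
Fosl2, chr5:32136292-32136471, plus strand: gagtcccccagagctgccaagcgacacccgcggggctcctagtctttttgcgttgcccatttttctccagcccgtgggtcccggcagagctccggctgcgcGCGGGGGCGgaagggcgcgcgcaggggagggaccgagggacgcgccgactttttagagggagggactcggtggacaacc

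The letters TGACG, the core of the cyclic AMP response element, were found in the promoters of Fos, Fosb, Junb and Btg2 (4 of 7) and in 20.8% of the 32851 promoters in the RefSeq set. This core was added to the search after the sequences were seen, and it does not separate the genes that fell from Fosl2: Jun and Jund, which also fell, had no match to any motif searched. The annotated span of Jund is longer than its 1-exon transcript of 1668 bases, so its window may not abut the start of that transcript. In Fos the core TGACG began at -129 and -66 from the start, in Fosb at -60 and in Junb at -106. The full element, TGACGTCA, was found in Btg2, where it began at -166, and in 1.79% of all promoters. The EGR site GCGNGGGCG was found in Fosb, Fosl2 and Btg2, and in 5.55% of all promoters. A TATA box, searched as TATAAA on the gene's strand, began at -33 in Fos and at the annotated start in Junb, and 8.32% of all promoters held one. The AP-1 site TGANTCA (7.81% of all promoters), the TEAD site GGAATG (14.7%), the ETS site CCGGAA (14.9%) and the CArG box of serum response factor (1.63%) had no match in these 7 windows. Sequence further from the start was not searched, nor were the promoters of Egr1, Ier2 and Fosl1. Matches had to be exact, so near matches such as tgacatca in the run of Jun were not counted. The genes may therefore hold such sites elsewhere, or in a form that differs from the letters searched. All motifs but the TATA box were searched on both strands, and the letters TGACG lie within TGACGTCA. A match to these letters is a description of the window and not evidence that a factor binds there.

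These genes are compact. In the GENCODE basic transcript with the longest coding sequence, Jun, Junb, Jund and Ier2 have 1 exon, as do 2.03% of tested genes, and no member has more than 4 exons, where the median tested gene has 9. Short-lived mRNAs often carry AU-rich elements in the part after the coding sequence, where the pentamer ATTTA is bound by decay factors such as ZFP36. This pentamer occurred 4.89 times per kb after the coding sequence of Fos, more densely than in 93.2% of 11838 tested genes, and 4.1 times per kb in Junb and 3.24 in Jun. The median tested gene had 1.14 per kb. Densities were lower in Btg2 (2.27), Jund (1.87), Fosl2 (1.72), Egr1 (1.64), Fosl1 (1.56) and Fosb (0.466), and Ier2 had none. The longer form TTATTTATT was found in Fos and Fosl2, and in 6.77% of tested genes. The density did not order the genes by their change: Ier2, with no pentamer, and Fosb, at 0.466 per kb, fell, while Fosl2, at 1.72, was not called.
The windows of 30 bases with the most pentamers in Fos, Jun and Fosl2 are shown with ATTTA in capitals, from GENCODE transcripts of the same build, to set 2 genes that fell beside one that was not called.
Fos, chromosome 12, bases 645 to 674 from the stop codon: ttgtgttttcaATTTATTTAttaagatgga
Jun, chromosome 4, bases 1033 to 1062 from the stop codon: gatcATTTAtaatcataggaaagATTTAgt
Fosl2, chromosome 5, bases 3678 to 3707 from the stop codon: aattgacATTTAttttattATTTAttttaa

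Within the Fos family, Fos and Fosb fell and Fosl2 was level. Fos (Entrez 14281; chromosome 12, 85473890 to 85477274, GRCm38.p6), the founding member and the usual marker of acute stimulation, was at 707, 721 and 686 CPM in DMSO replicates 1 to 3 and at 378.5, 394.5 and 407 CPM in NIBR-LTSi replicates 1 to 3. The groups did not overlap, and all libraries of a group were within a narrow band. The log2 fold change was -0.84 ± 0.04 (SE; edgeR adjusted p = 1.37e-08). Fos was also the most abundant of the 10 genes per length, and its DMSO level per length was above that of 98.8% of tested genes.

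Fosb (Entrez 14282; chromosome 7, 19302696 to 19310118), which encodes a full-length protein and the shorter, long-lived delta-FosB from the same gene, was at 206, 177.5 and 190.0 CPM with DMSO. With NIBR-LTSi it was at 72.7, 107 and 104 CPM. NIBR-LTSi replicate 1 stood below the other two treated libraries, which made Fosb the most variable of the genes that fell, with a coefficient of variation of 20.0% in that group. The log2 fold change was -1.01 ± 0.17 (edgeR adjusted p = 0.00864), and -0.87 (adjusted p = 5.05e-07) without that library. Without any 1 of the other 5 libraries the adjusted p was 0.011 to 0.0362. With replicate number as a block in the edgeR model the call was lost (log2 fold change -1.03, adjusted p = 0.0593). The splice forms share a row in the table and were not separated.

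The Fos-related antigens, which lack the transactivation domain of Fos and are known to be induced later, showed no called change. Fosl2 (Entrez 14284; chromosome 5, 32136472 to 32157840), which encodes FRA-2, was at 173.5, 158 and 173 CPM with DMSO and at 155, 167 and 173 CPM with NIBR-LTSi. The groups overlapped, and the log2 fold change was -0.03 ± 0.05 (edgeR adjusted p = 0.666). Its sign turned when library totals alone were used, and when NIBR-LTSi replicate 1 was left out. Fosl1 (Entrez 14283; chromosome 19, 5447698 to 5455938), which encodes FRA-1 and is known as a joint target of AP-1 and YAP, was close to the detection limit. Its counts were 29, 12 and 6 with DMSO and 10, 13 and 18 with NIBR-LTSi, and the log2 fold change was -0.32 ± 0.44 (edgeR adjusted p = 0.592). A change in Fosl1 was not detected, and with so few counts a small one could have been missed. The sign of its fold change was positive without DMSO replicate 1. Fosl1 overlaps Ccdc85b on the opposite strand, and since the strand setting of the counting is not given in the sources used here, their reads cannot be assigned with certainty.

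All 3 Jun genes fell, Jun most and Jund least. Jun (Entrez 16476; chromosome 4, 95049036 to 95052222), the main partner of Fos and a substrate of the JNK kinases, was at 348, 329 and 332 CPM with DMSO and at 168, 184 and 183.5 CPM with NIBR-LTSi. The groups stood well apart, with a log2 fold change of -0.91 ± 0.04 (edgeR adjusted p = 2.52e-08). The gene has an annotated antisense neighbour, Junos, that has no row of its own in the table.

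Junb (Entrez 16477; chromosome 8, 84976909 to 84978748), which encodes a Jun protein that can restrain Jun and slow the cell cycle, was at 261, 276 and 258 CPM with DMSO and at 175, 189.5 and 182 CPM with NIBR-LTSi. The log2 fold change was -0.54 ± 0.04 (edgeR adjusted p = 1.41e-06). Junb overlaps Prdx2 on the opposite strand, whose log2 fold change was -0.17 ± 0.05, less than that of Junb. Jund (Entrez 16478; chromosome 8, 70697739 to 70700616), the most steadily expressed Jun gene, was at 335, 347 and 323 CPM with DMSO and at 266, 269.5 and 266 CPM with NIBR-LTSi. Its groups were also separate, but the change was the smallest of the 8, at -0.33 ± 0.04 on the log2 scale (edgeR adjusted p = 2.57e-05), and the antisense gene Gm11175 overlaps it.

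**Figure D2:**
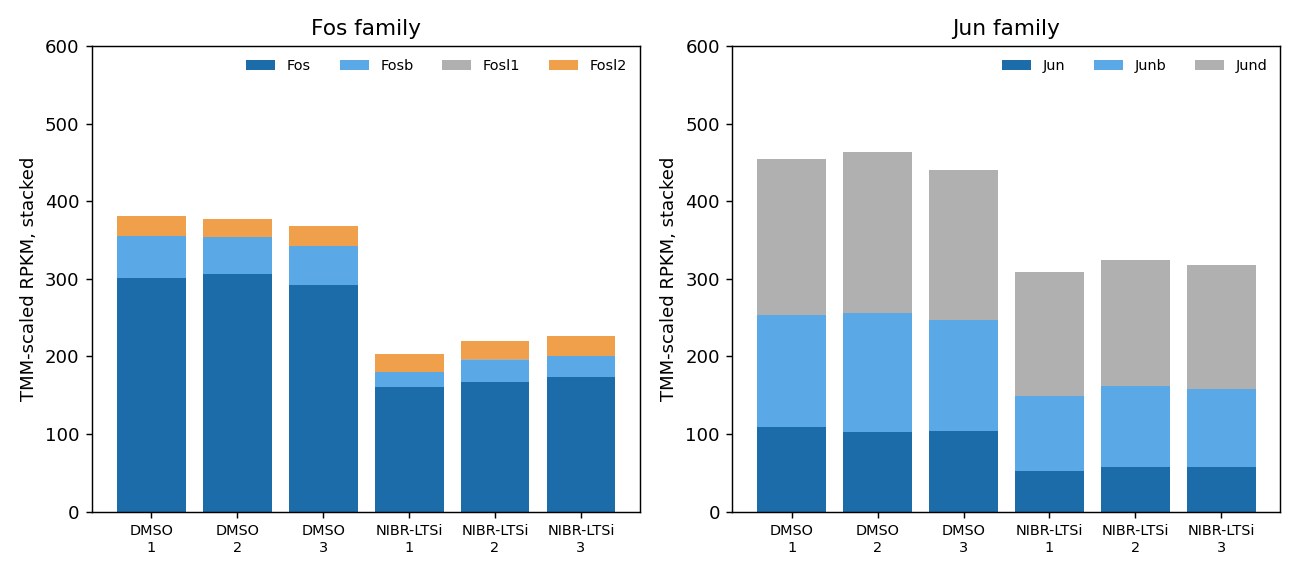
TMM-scaled RPKM (CPM per kilobase of deposited gene width) of the Fos family (left) and the Jun family (right), stacked by gene for each of the 6 libraries. The stacks are lower in all 3 NIBR-LTSi libraries, and the segments of Fosl2 and Jund shrink least; Fosl1 is too small to see.

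Since members fell by different amounts, the makeup of the 2 families shifted. Levels per length (RPKM, TMM-scaled, from the deposited gene widths) summed to 375 ± 7 for the Fos family with DMSO and 217 ± 12 with NIBR-LTSi (SD, n = 3), and to 453 ± 12 and 317 ± 8 for the Jun family. The ratio of the Fos sum to the Jun sum was 0.813 to 0.839 in the DMSO libraries and 0.657 to 0.711 in the NIBR-LTSi libraries. Both ranges are narrow and they do not overlap. Of the Fos family sum, Fosl2 made up 6.56 ± 0.39% with DMSO and 11.1 ± 0.1% with NIBR-LTSi. Fos made up 79.9 ± 1.3% and 77.3 ± 1.7%, with ranges that overlapped, so Fos remained the bulk of the family in both groups. Of the Jun family sum, Jund made up 44.4 ± 0.5% and 50.6 ± 0.9%, and Jun 23.3 ± 1.0% and 17.7 ± 0.5%. The share of Junb was 32.3 ± 0.6% and 31.8 ± 0.5%, with ranges that overlapped. These shares are descriptions of mRNA per length, with no test, and say nothing of protein.

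In order of mean level per length, the DMSO libraries had Fos (299.7 RPKM), Jund (201), Junb (146), Egr1 (123), Ier2 (121), Jun (105), Btg2 (74.7), Fosb (50.5), Fosl2 (24.6) and Fosl1 (0.346). Among neighbours in that order, the libraries of Egr1 and Ier2 overlapped. With NIBR-LTSi the order was Fos (167), Jund (160.2), Junb (101), Ier2 (79.6), Jun (56.0), Egr1 (53.9), Btg2 (35.4), Fosb (25.0), Fosl2 (24.1) and Fosl1 (0.28). Here 3 pairs of neighbours overlapped: Fos with Jund, Jun with Egr1, and Fosb with Fosl2. Egr1 thus went from rank 4 to rank 6, and Fos, which stood clear of Jund in DMSO libraries, overlapped it in treated ones.

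Outside the AP-1 families, Egr1 had the largest fall of the 10. Egr1 (Entrez 13653; chromosome 18, 34861207 to 34864956), a zinc finger factor induced by ERK through serum response factor, was at 569.8, 563 and 525 CPM with DMSO and at 222.5, 251 and 252 CPM with NIBR-LTSi. No treated library came near a control one, and the level was 2.28-fold lower, with a log2 fold change of -1.19 ± 0.05 (edgeR adjusted p = 2.58e-08). Of all tested genes, 0.929% had a lower log2 fold change. Of the other EGR genes, Egr2, its close relative, fell from 22.2 ± 1.0 to 9.55 ± 0.85 CPM (log2 fold change -1.21 ± 0.08, edgeR adjusted p = 3.92e-07). Egr3 had counts of 30, 6 and 20 with DMSO and 5, 6 and 5 with NIBR-LTSi and did not pass the filter, nor did Egr4. In the 6 alternatives that tested Egr3, its log2 fold change was -2.22 to -1.74. Its NIBR-LTSi libraries were at 0.18 to 0.26 CPM, so only DMSO libraries could carry it past a filter. For that reason no p-value is given for Egr3. The co-repressor genes Nab1 and Nab2, whose products bind EGR proteins and are themselves EGR targets, had log2 fold changes of 0.14 ± 0.05 (edgeR adjusted p = 0.0336) and 0.01 ± 0.05 (adjusted p = 0.836). The Nab1 call was lost in 8 of 14 alternatives, with DESeq2 (adjusted p = 0.179) and in 5 of the 6 fits that left out a library among them: DMSO replicate 1 or 2, or any of the NIBR-LTSi replicates.

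Ier2 (Entrez 15936; chromosome 8, 84661331 to 84662852), a short nuclear protein induced by growth factors, was at 183, 191 and 178 CPM with DMSO and at 120.2, 122 and 122 CPM with NIBR-LTSi. Its treated libraries were the most alike of any tested member after Jund, with a coefficient of variation of 0.817%. The log2 fold change was -0.60 ± 0.04 (edgeR adjusted p = 3.4e-07).

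Btg2 (Entrez 12227; chromosome 1, 134074865 to 134079155), which encodes an antiproliferative partner of the CCR4-NOT deadenylase and is induced by p53 as well as by growth factors, was at 209, 205 and 200.4 CPM with DMSO and at 92.9, 97.0 and 101 CPM with NIBR-LTSi. It was 2.11-fold lower, with a log2 fold change of -1.08 ± 0.04 (edgeR adjusted p = 5.85e-09, the smallest of the 10). Of 7 tested relatives in the BTG, TOB and IER families, 4 fell (57.1%, against 19.2% of all tested genes) and none rose: Ier5 by 0.25, Btg1 by 0.25, Tob1 by 0.21 and Tob2 by 0.15 on the log2 scale, all less than Btg2 and Ier2. Btg3, named after its values were seen, had the largest difference of the list and in the other direction, at a log2 fold change of 0.73 ± 0.29 on counts of 18 to 44 (edgeR adjusted p = 0.0647). It was called higher in 2 of 14 alternatives, those with at least 1 CPM in 3 libraries (adjusted p = 0.044) and without NIBR-LTSi replicate 1 (adjusted p = 0.0312). The Tob2 call was lost in 3 of 14 alternatives, with an adjusted p of up to 0.0757: library totals only, and the fits that left out DMSO replicate 1 or NIBR-LTSi replicate 2. Among 11 tested p53 targets, 9 were not called, Ccng1 rose by 0.16 and Trp53inp1 fell by 0.45 on the log2 scale. Each direction held 9.09% of the list, against 22.8% higher and 19.2% lower over all tested genes. Cdkn1a, the standard p53 readout (named after its value was seen), was at 180 ± 5 and 178 ± 5 CPM (log2 fold change -0.02 ± 0.04, edgeR adjusted p = 0.769).

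**Figure D3:**
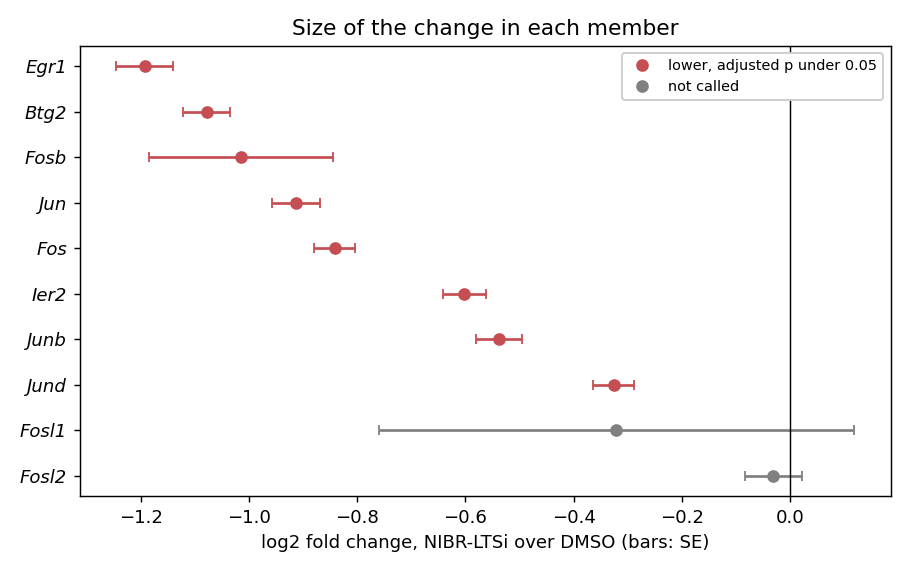
Log2 fold change of each gene, NIBR-LTSi over DMSO, with bars of 1 SE from edgeR, ordered by size. Egr1, Btg2 and Fosb lie at or past -1, and the intervals of Fosl1 and Fosl2 cross 0.

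For each library, the members above and below their group mean on the log2 scale were counted. The same count was not made over all tested genes, so a trait of the members cannot be told from a library-wide shift. In NIBR-LTSi replicate 1 all 10 genes were below the mean, some by little, as with Jund (-0.0069) and Ier2 (-0.0133). In NIBR-LTSi replicates 2 and 3 there were 9 and 8 genes above it. Among DMSO libraries, 7 genes were above the mean in replicate 1, 7 in replicate 2 and 1 in replicate 3. These deviations were small beside the difference between groups for the 8 genes that fell: on the log2 scale they ran from -0.05 to 0.05 for Fos, from -0.12 to 0.06 for Egr1 and from -0.35 to 0.20 for Fosb. For Fosl1 they ran from -0.92 to 0.82.

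The profile of Fos over the 6 libraries, as log2 CPM centred on its mean, was compared with those of 8553 other genes at a mean of at least 10 CPM. The closest was Dusp5, which encodes a nuclear ERK phosphatase that is itself an ERK-induced gene, at a root mean square distance of 0.025 log2 units (Pearson's r 0.998 over 6 libraries). Dusp5 stood at 187.5 ± 3.1 CPM in control libraries and fell by 0.86 ± 0.04 on the log2 scale, to 103 ± 3 CPM. Next came Ceacam18, the cytochrome gene Cyp2c23, Erich4, the proton channel gene Otop3 and the linker histone gene H1f2, at distances of 0.035 to 0.037. Reads of Cyp2c23 could be shared with other Cyp2c genes. Jun was the closest member, at 0.054, with 17 other genes closer, while Btg2, Ier2, Junb, Egr1, Fosb and Jund followed at 0.12 to 0.26. As the 6 libraries form 2 groups, r mostly records the difference between them, and it is given as a description.

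The wider immediate-early response was followed in a list of 43 further genes, of which 37 were tested. Of these, 22 fell (59.5%) and 6 rose, against 19.2% called lower and 22.8% called higher over all tested genes, and the median over the list was -0.34 on the log2 scale. Rhob, a short-lived small GTPase, fell from 128 ± 1 to 68.3 ± 2.0 CPM (log2 fold change -0.90 ± 0.04, edgeR adjusted p = 1.57e-08). Dusp1, which encodes a phosphatase of JNK and p38, fell from 53.8 ± 3.8 to 29.0 ± 1.7 CPM, and Zfp36, the AU-rich mRNA decay factor, from 531 ± 17 to 373 ± 27 CPM. The 6 that rose were Ccn1, Ccn2, Myc, Klf4, Hbegf and Mcl1. Of these Ccn1 and Ccn2 are also standard targets of YAP. Ccn1 rose from 18.9 ± 1.0 to 53.8 ± 4.3 CPM (log2 fold change 1.51 ± 0.07, edgeR adjusted p = 2.04e-08) and Hbegf, an EGF receptor ligand, from 143 ± 6 to 178 ± 13 CPM. Klf6 (342 ± 10 and 337 ± 18 CPM) and Maff (18.5 ± 0.3 and 18.5 ± 2.1 CPM) were among the 9 not called. Dusp1, Zfp36, Klf6, Maff and the genes that rose other than Ccn1 were named after their values were seen.

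**Figure D4:**
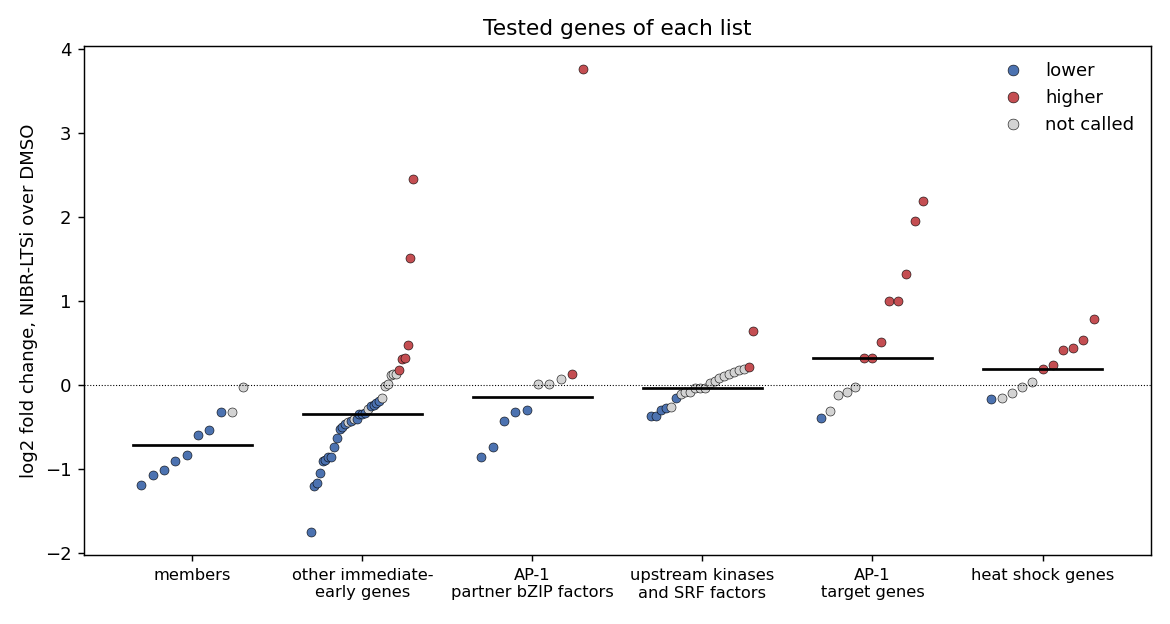
Log2 fold changes (NIBR-LTSi over DMSO) of the tested genes of each list, 1 point per gene, coloured by the edgeR call, with a bar at the list median. The median is -0.72 for the 10 members and -0.34 for other immediate-early genes, and 0.32 for AP-1 targets.

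Among 10 tested basic leucine zipper genes whose products pair with Fos or Jun proteins or share their sites, 5 fell and 2 rose. Over all tested genes, 19.2% were called lower and 22.8% higher, so the rises were not above the background share. Jdp2, which encodes a Jun dimerisation protein known as a repressor of AP-1 sites, is 1 of the 2 that rose. It had counts of 5, 8 and 3 with DMSO and 74, 76 and 96 with NIBR-LTSi (log2 fold change 3.76 ± 0.32). Jdp2 was thus near the floor in all control libraries and well above it in all treated ones. Only the treated libraries could carry it past the filter, and for that reason no p-value is given for Jdp2. Atf3, a stress-induced partner of Jun, fell from 62.6 ± 4.3 to 37.4 ± 5.0 CPM (log2 fold change -0.74 ± 0.09). Mafk, Maf and Batf2 were among the others that fell, by 0.43, 0.29 and 0.32 on the log2 scale. The second rise was Atf2, at a log2 fold change of 0.13 ± 0.05 (edgeR adjusted p = 0.0408). The calls of Atf2 and Batf2 were lost in 9 and 10 of 14 alternatives, with adjusted p-values of up to 0.22 and 0.172.

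Of 22 tested kinases and factors that induce these genes, 5 fell (22.7%, against 19.2% of all tested genes), 2 rose (9.09%, against 22.8%) and 15 were not called. Their median was -0.04 on the log2 scale. The 5 that fell were Mapk3 (ERK1), Map2k2 (MEK2), Rps6ka1 (RSK1), Mapk8 (JNK1) and Map2k4, by 0.37, 0.38, 0.30, 0.27 and 0.15 on the log2 scale. The 2 that rose were Rps6ka5, which encodes the histone and CREB kinase MSK1, by 0.64, and Creb1 by 0.21. Creb1 was lost in 4 alternatives and Map2k4 in 1, while 5 genes of the list rose with library totals only or without DMSO replicate 3, and 1 rose without DMSO replicate 1, NIBR-LTSi replicate 2 or NIBR-LTSi replicate 3. Srf itself was at 57.9 ± 2.9 and 53.3 ± 6.2 CPM (edgeR adjusted p = 0.28; named after its value was seen). Of 10 tested cytoskeletal targets of serum response factor and its MRTF partners, 3 rose (Tagln2, Flna and Tpm1), 1 fell (Actg1) and 6 were not called. Over all tested genes 22.8% rose, and Tpm1 was not called without NIBR-LTSi replicate 2 (adjusted p = 0.0846). In the list of AU-rich decay factors, Zfp36, Zfp36l1 and Zfp36l2 fell and Hnrnpd and Elavl1 rose, with 3 of 8 not called. Those that fell were 37.5% of the list and those that rose 25.0%, against 19.2% and 22.8% of all tested genes. The calls of Elavl1, Zfp36l2 and Hnrnpd were lost in 9, 6 and 2 of 14 alternatives. Without NIBR-LTSi replicate 2 or 3 neither Elavl1 nor Hnrnpd was called.

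Of 13 tested genes that are commonly listed as AP-1 targets, 8 rose (61.5%, against 22.8% of all tested genes) and 1 fell. In DESeq2, 6 rose: the call of Ereg was lost in 4 of 14 alternatives and that of Cd44 in 1. The list median was 0.32 on the log2 scale, and 8 of the 21 listed were not tested, 5 of them at 0 in every library (Mmp3, Mmp9, Mmp10, Mmp13 and Spp1). Ccnd1, which encodes cyclin D1, rose from 38.0 ± 2.0 to 94.3 ± 4.1 CPM (log2 fold change 1.31 ± 0.05, edgeR adjusted p = 6.94e-09), and Plaur, the urokinase receptor, from 5.18 ± 1.05 to 23.7 ± 4.4 CPM. Several of these genes are also known to respond to YAP and TEAD, and Hbegf is in the previous list as well. The gene that fell was Vim, a call that was lost in 7 of the 14 alternatives, DESeq2 and limma-voom included.

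Because organoids were dissociated before lysis, heat shock genes, which also respond to dissociation, are given beside these results. Of 11 tested, 6 rose (54.5%, against 22.8% of all tested genes) and Bag3 fell. The call of Hspe1, one of those that rose, was lost in 5 of 14 alternatives, and that of Bag3 in 2: library totals only, and without DMSO replicate 1 (adjusted p up to 0.0783). The list median was 0.19 on the log2 scale, and the summed level of the 12 listed genes was 3240 to 3280 CPM with DMSO and 3570 to 3770 CPM with NIBR-LTSi. Hsph1 rose from 40.7 ± 0.8 to 59.0 ± 0.6 CPM and Hspd1 from 342 ± 9 to 464 ± 16 CPM. Dnajb1 was at 46.5 ± 0.4 and 47.5 ± 0.5 CPM (edgeR adjusted p = 0.612; named after its value was seen), and Hspb1 was near 0 in all libraries. Reads of the near-identical Hspa1a and Hspa1b are uncertain. The part of dissociation in the levels of the 10 genes was not tested. Markers of the villus tip, where Fos and Junb are known to be expressed in the mouse intestine, moved both ways. Of 5 tested, Slc28a2 and Ada rose, Creb3l3 fell, and Nt5e and Apoa4 were not called. That is 40.0% higher and 20.0% lower, against 22.8% and 19.2% of all tested genes. The part of these markers in the result was not tested.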

How the data were processed

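RNA sequencing counts of 6 libraries were used. The authors deposited 1 table of raw read counts per gene with Entrez identifier, symbol and gene width in bases, per the file headers. Per the submitters' processing notes the build was mm10 and edgeR was used; the aligner, the counting tool and its handling of strand were not given in the sources used here. Counts were filtered with filterByExpr, scaled by TMM and tested with the edgeR 4.0.16 (R 4.3.3) quasi-likelihood F-test (robust, two-sided) in a model of treatment alone, which left 4 residual degrees of freedom. P-values were Benjamini-Hochberg adjusted over all 12592 tested genes, at 0.05. The SE was recovered from the F statistic, as the size of the log2 fold change over the root of F. CPM uses TMM-scaled library sizes, and RPKM divides it by deposited width. The procedure was tested on simulated data.

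The 10 members, the gene lists and the alternatives were chosen with earlier results of these data known. Named genes were every member, up to 4 tested genes per list with the smallest p, and the 6 genes closest to Fos; some that the rule names are not reported here. Within-group pairs differed beyond sampling noise (chi-square per degree of freedom 4.46 to 11.3), so none was counted as 1 library. Promoters are from RefSeq GRCm38.p6, the assembly of mm10, and transcripts from GENCODE. The alternatives were DESeq2 1.42.0, limma-voom (limma 3.58.1), other scalings and filters, a replicate block, and leaving out each library.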

Additional observations from a re-analysis of the deposited data

How the results depend on the processing

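In all 14 alternatives no member rose, and 8 members fell in each but the replicate block, where 7 did. Same-numbered libraries had deviations that correlated at 0.0482, -0.296 and 0.562, and differently numbered ones at -0.553 to 0.528. With 3 libraries per group these values cannot decide whether the numbers pair the samples. Under the replicate block Fosb kept its log2 fold change (-1.03) with an adjusted p of 0.0593, and 2258 genes were called lower, against 2421. The log2 fold changes stayed between -0.87 and -0.80 for Fos, -0.95 and -0.87 for Jun and -1.23 and -1.14 for Egr1. Signs turned for genes that were not called: Fosl1 was at 0.29 without DMSO replicate 1 (range over the libraries left out -0.70 to 0.29), Fosl2 at 0.0139 with library totals only and at 0.00456 without NIBR-LTSi replicate 1 (range over the libraries left out -0.0754 to 0.00456), and Nab2 at -0.00383 with DESeq2 size factors and -0.00307 in DESeq2. Fosl1 had no value when genes had to reach 1 CPM in 3 libraries. Of the other immediate-early genes, 19 to 23 fell and 6 or 7 rose. The median of all tested genes moved at most to 0.06, with library totals only. Depth limits Fosl1, Egr3 and Jdp2, which have few counts.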
